A study of Mus musculus with 24 samples.

Results

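S100 genes encode small proteins, most of them calcium-binding, and the messenger RNA of these genes was followed across 7 groups of mouse blood progenitors. The genes were S100a1, S100a4, S100a6, S100a8, S100a9, S100a10, S100a11 and S100a13, taken through probe sets that the platform annotation ties to a single gene symbol. Of these 8 listed genes, 7 had such a probe set, among 12393 genes of the table. S100a11 lies only on a probe set that carries 3 symbols, so no level is given for it. S100a1 and S100a10 had 2 probe sets each, and the one with the higher mean over the 24 arrays stands for the gene.

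The series measured RNA of C57BL/6 mouse cells on 24 one-colour arrays in 7 groups. LSK (3 arrays, titled HSC) are untransduced cells of the lineage-negative, Sca-1 and Kit positive stem cell phenotype, and GMP (4 arrays) are untransduced granulocyte monocyte progenitors. GFP (3 arrays) are GMP that received an empty vector, and MT2 (4), NHA9 (3) and AE (4) are GMP that received the fusion oncogenes MOZ-TIF2, NUP98-HOXA9 and AML1-ETO. All 14 transduced samples were GFP-positive cells taken 36 hours after the infection, so the GFP group shares vector, culture and harvest with the oncogene groups and GMP does not. L-GMP (3 arrays) are cells with a GMP surface phenotype from a mouse model of MOZ-TIF2 leukemia, labelled leukemic stem cells. Age, number of animals, and whether replicates came from separate animals or infections are not given in the sources used here, so the p-values speak only for the spread among these arrays, part of which may be technical.

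Most S100 proteins bind calcium through a pair of EF-hand loops and act as dimers that change shape and grip a partner protein. S100a8 and S100a9 form calprotectin, which fills the cytosol of neutrophils and monocytes and signals through Tlr4 and Ager when released. S100a10 pairs with annexin A2 at membranes, S100a4 binds non-muscle myosin in motile cells, and S100a6 (calcyclin) binds the protein encoded by Cacybp. In the RefSeq table of the GRCm38.p6 assembly, all 8 listed genes lie on chromosome 3 among 15 S100 genes, in the order S100a1, S100a13, S100a4, S100a6, S100a8, S100a9, S100a11 and S100a10.

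The 250 bases before the start of 4 members are shown from RefSeq (GRCm38.p6) because results described here turn on these genes. S100a8 is chr3:90668821-90669070 on the plus strand, S100a9 chr3:90695722-90695971 on the minus strand, S100a4 chr3:90603520-90603769 and S100a6 chr3:90612644-90612893, both on the plus strand. Capitals mark matches, on either strand, to a TATA box (TATAAA), a PU.1 site (GAGGAAG, shown as its reverse complement) or a C/EBP site (TTNNGCAA, likewise reversed).
S100a8: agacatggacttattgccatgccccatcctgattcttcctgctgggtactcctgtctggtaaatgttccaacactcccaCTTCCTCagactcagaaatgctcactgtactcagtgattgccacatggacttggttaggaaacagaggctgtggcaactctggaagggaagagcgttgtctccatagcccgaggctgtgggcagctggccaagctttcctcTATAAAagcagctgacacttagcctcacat
S100a9: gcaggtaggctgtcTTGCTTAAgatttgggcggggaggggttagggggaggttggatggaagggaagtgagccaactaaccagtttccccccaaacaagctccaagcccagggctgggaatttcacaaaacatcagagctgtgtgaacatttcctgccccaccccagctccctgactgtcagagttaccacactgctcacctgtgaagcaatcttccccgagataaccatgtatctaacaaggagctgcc
S100a4: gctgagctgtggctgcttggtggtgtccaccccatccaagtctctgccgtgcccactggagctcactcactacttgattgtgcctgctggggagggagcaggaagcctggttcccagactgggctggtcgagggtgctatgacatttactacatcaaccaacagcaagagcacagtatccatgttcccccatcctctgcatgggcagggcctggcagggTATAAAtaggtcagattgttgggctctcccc
S100a6: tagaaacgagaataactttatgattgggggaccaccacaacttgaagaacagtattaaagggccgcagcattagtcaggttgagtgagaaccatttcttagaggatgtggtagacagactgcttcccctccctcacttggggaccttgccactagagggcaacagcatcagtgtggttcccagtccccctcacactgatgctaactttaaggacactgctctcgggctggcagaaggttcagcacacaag
A TATA match lay 30 bases before the start of S100a8 and 31 bases before that of S100a4. S100a8 also held a PU.1 match 171 bases before its start, and S100a9 a C/EBP match 236 bases before its start. S100a6 held none of the 4 motifs searched, the fourth being AP-1 (TGANTCA). Over 32851 promoter windows of 250 bases, TATA letters were found in 12.4%, PU.1 in 10.6%, C/EBP in 9.56% and AP-1 in 6.75%, so no such match is rare. A match describes letters only.

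Levels are log2 values, so a difference of 1 is a doubling, and a linear level of 60 (5.91 on the log2 scale) was used as background. A difference was called where limma's adjusted p was under 0.05 over all probe sets tested in that comparison. All 7 members passed the filter in every comparison. Array medians lay between 5.63 and 5.76, and 46.1 to 48.3% of probe sets were over 60. The GMP marker Mpo had its highest group mean in GMP (13.68) and its lowest in LSK (12.54), where it was still high. The stem cell marker Hlf was 9.81 in LSK against 5.14 to 6.22 elsewhere, as the labels say. The GMP marker Kit was 10.27 in GMP but 8.01 to 8.90 in the transduced and leukemic groups. L-GMP 1 (mean absolute distance 0.60 from the rest of its group), GMP 2 (0.51), AE 1 (0.41) and L-GMP 3 (0.42) stood farthest from their groups. Values without them are given where they change the call of a member. For uncalled differences whose direction or size they change, only some are given. Array file names carry a tag on 15 arrays (tag A), another on 5 (tag B: GMP 4, MT2 4 and AE 2 to 4) and none on 4 (LSK 3, NHA9 3, L-GMP 2 and 3); what the tag stands for is not stated.

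**Figure D1:**
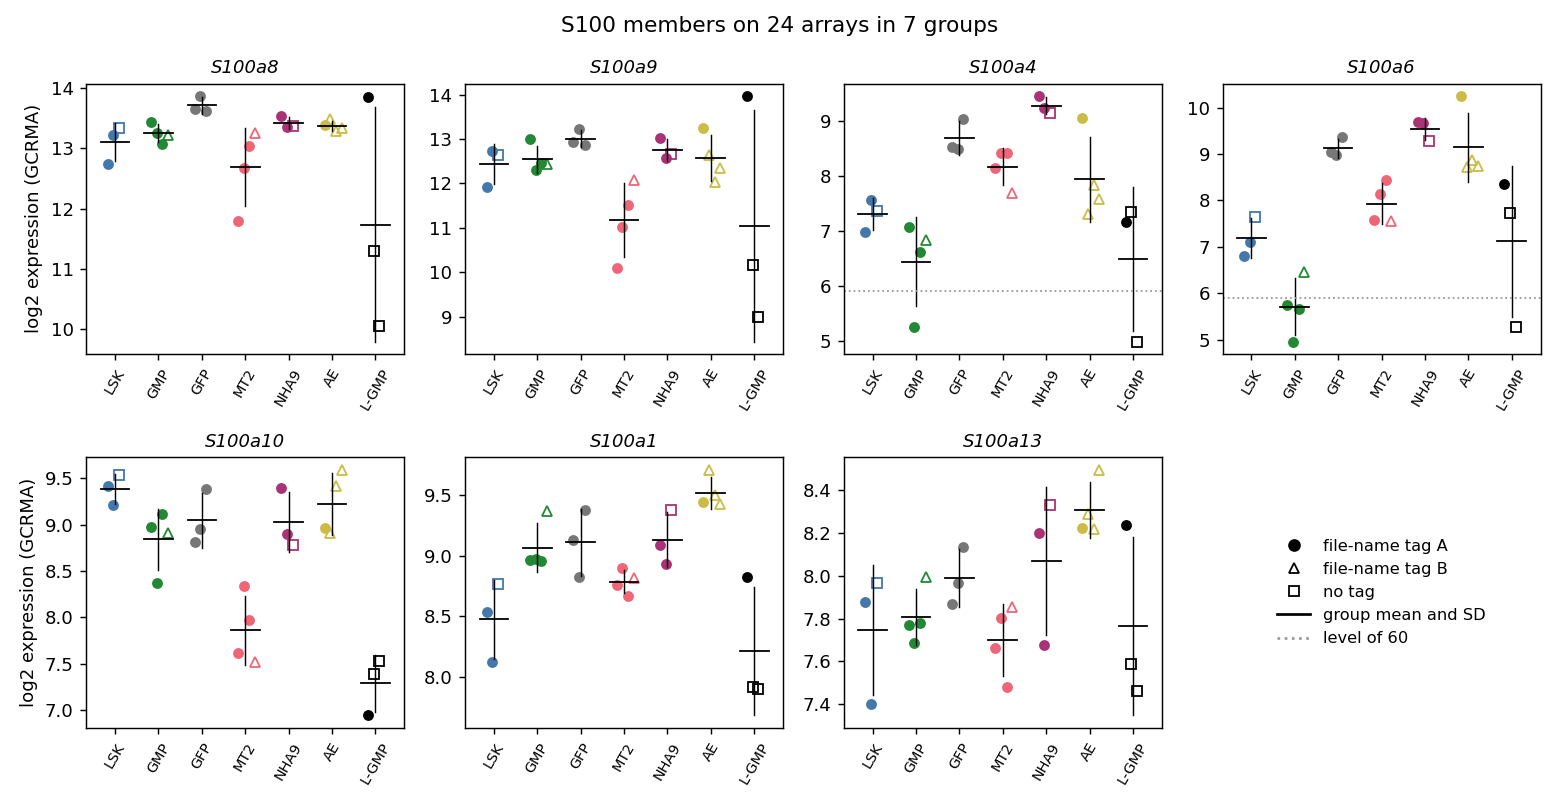
Log2 expression of the 7 S100 members (vertical axes, one panel per gene) on each of the 24 arrays in 7 groups; marker shape gives the file-name tag, bars the group mean and SD, and the dotted line the level of 60. S100a4 and S100a6 have their lowest group mean in GMP, and the 3 L-GMP arrays spread over several log2 units for S100a8 and S100a9.

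S100a8 and S100a9, the pair that makes calprotectin, were near the top of the scale in normal cells. In GMP, S100a8 read 13.44, 13.25, 13.08 and 13.23 on the 4 arrays, and in LSK 12.74, 13.22 and 13.34. S100a9 read 12.99, 12.31, 12.45 and 12.44 in GMP and 11.92, 12.74 and 12.65 in LSK. The LSK and GMP ranges overlapped for both genes. The difference of LSK minus GMP was −0.15 for S100a8 (95% interval −0.57 to 0.27) and −0.11 for S100a9 (−0.66 to 0.44). These are bulk samples, where fewer cells of a type and less RNA per cell cannot be told apart.

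MOZ-TIF2 lowered both within 36 hours relative to the empty vector. S100a9 was 12.93, 13.22 and 12.86 with the GFP vector and 10.09, 11.02, 11.52 and 12.07 with MOZ-TIF2. The groups did not overlap, and the 4 MOZ-TIF2 arrays themselves spanned nearly 2 log2 units. S100a9 fell by 1.83 (SE 0.37), a 3.55-fold change with limma's adjusted p = 0.0163. The call was lost without GFP replicate 2 (−1.72, adjusted p = 0.0739) and with the trended robust prior (adjusted p = 0.0561). S100a8 was 13.65, 13.87 and 13.62 with the GFP vector and 11.80, 12.67, 13.04 and 13.26 with MOZ-TIF2, again without overlap. It fell by 1.02 (SE 0.29), 2.03-fold, with limma's adjusted p = 0.0460, a call lost when MT2 replicate 2 or any one of the GFP arrays was left out.

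In all, 4 of 7 members fell with MOZ-TIF2 (S100a6, S100a8, S100a9 and S100a10) and none rose, beside 12.0% of all genes called in that comparison. The member differences ranged from −1.83 to −0.29, against a median of 0.06 over all genes. Within tag A alone the S100a8 and S100a9 differences were −1.21 (adjusted p = 0.0346) and −2.12 (adjusted p = 0.0140, both limma). With one spread shared by all 24 arrays, which takes in the wide L-GMP group, limma's adjusted p was 0.352 for S100a8 and 0.198 for S100a9, and with the tag as a factor 0.250 and 0.140.

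The neutrophil maturation list moved along with calprotectin. This list of granule and surface genes of maturing neutrophils (Ltf, Camp, Ngp, Lcn2 and others, 24 on the array) had 10 of 21 tested members lower with MOZ-TIF2 and none higher, with a median difference of −0.92. Its mean log2 level was 8.68 to 8.81 over the GFP arrays and 7.64, 7.83, 8.18 and 8.33 over the MOZ-TIF2 arrays, the same order in which S100a8 and S100a9 ran on those 4 arrays. Its summed linear level was 33470 to 34490 in GFP and 16810 to 25430 in MT2, and Mmp9 and Stfa3 were under 60 on every array of both groups. Of the genes named, Ngp ran in the order of S100a8 and S100a9 over the MOZ-TIF2 arrays, and Ltf, Camp and Lcn2 did not. Monocyte and macrophage genes had 1 of 18 lower and none higher. Whether the number of maturing neutrophils played a part in the calprotectin result was not tested.

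The 3 leukemic arrays differed widely in calprotectin. S100a8 was 13.86, 11.30 and 10.05 on L-GMP 1, 2 and 3, and S100a9 was 13.97, 10.17 and 8.99. L-GMP 1 was thus above every GMP array, and the other two below every one of them. Against GMP, S100a8 differed by −1.51 (SE 0.72, limma's adjusted p = 0.321) and S100a9 by −1.51 (SE 0.96, adjusted p = 0.479), neither called. Without L-GMP 1 the differences were −2.57 (adjusted p = 0.00209) and −2.97 (adjusted p = 0.00136), both called by limma. Against LSK they were −1.36 and −1.40 over all 3 leukemic arrays, not called by limma (adjusted p = 0.314 and 0.444), and −2.43 and −2.86 without L-GMP 1 (adjusted p = 0.000860 and 0.000472). The neutrophil list followed the same split, with mean log2 levels of 9.30, 7.11 and 5.90 on the 3 leukemic arrays against 7.61 to 8.12 in GMP. L-GMP 1 also had the widest gap between 3' and 5' Gapdh control probe sets of the 24 arrays (4.82, against 3.58 and 3.08 on L-GMP 2 and 3), and it alone of the leukemic arrays carries tag A.

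**Figure D2:**
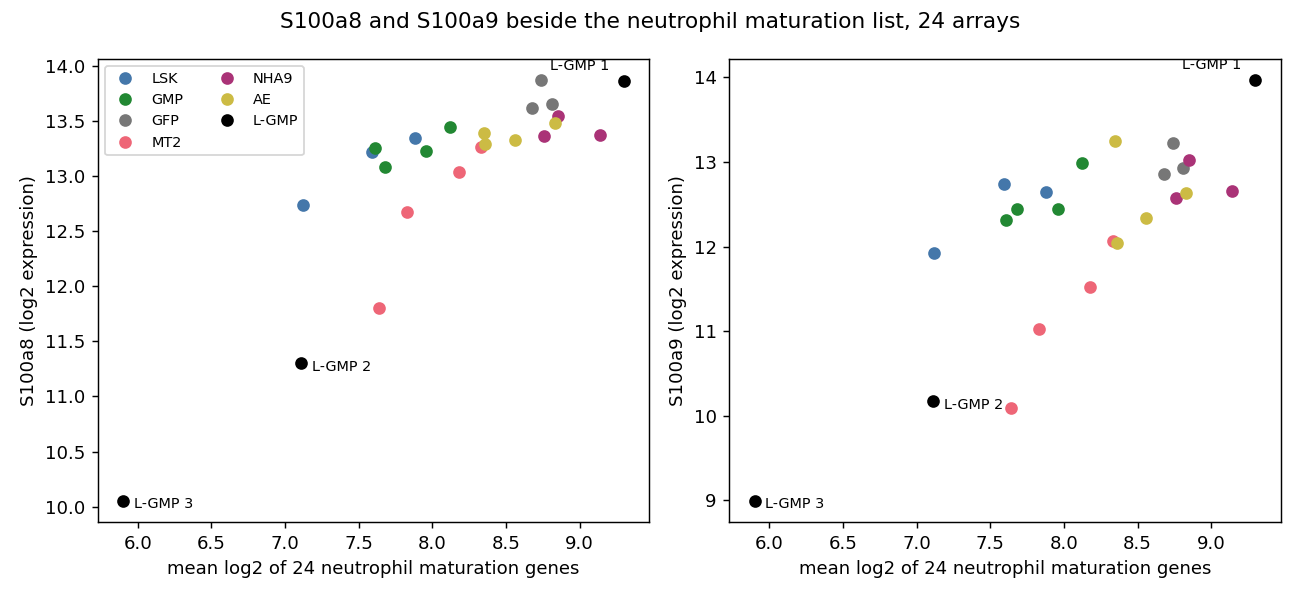
S100a8 (left) and S100a9 (right) log2 expression against the mean log2 level of 24 neutrophil maturation genes, one point per array, coloured by group. L-GMP 1 lies at the upper right (list mean 9.30) and L-GMP 3 at the lower left (5.90), with the MT2 arrays between 7.64 and 8.33.

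Calprotectin was not called for the other oncogenes against the vector. S100a8 read 13.54, 13.36 and 13.37 with NUP98-HOXA9 and 13.39, 13.48, 13.29 and 13.33 with AML1-ETO, all below the lowest GFP array at 13.62. S100a9 read 13.03, 12.57 and 12.66 with NUP98-HOXA9, and 13.25, 12.63, 12.04 and 12.34 with AML1-ETO, both overlapping the GFP arrays. By limma no member was called for NUP98-HOXA9 against GFP, where 0.188% of all genes were called, and 2 members (S100a4 and S100a6) had an unadjusted p under 0.05. None was called for AML1-ETO against GFP either, where 12.1% of genes were called, and 2 members (S100a1 and S100a8) had an unadjusted p under 0.05. The methods' t-test called 0 members in both, but it called 0 of 6919 and 0 of 7121 genes there, so it says nothing about the members. Limma with a trended, robust prior called 0 for NUP98-HOXA9, beside 14 of 6919 genes, and 1, S100a8, for AML1-ETO, beside 910 of 7121. Without AE 1, limma called S100a9 lower by 0.67 (adjusted p = 0.0222) and S100a4 lower by 1.12 (adjusted p = 0.00401). AE 2 to 4 are all in tag B and the GFP arrays all in tag A. Tag and oncogene cannot be told apart in that fit. AE 1, the array in tag A, lay above the GFP mean by 0.364 for S100a4 and 0.245 for S100a9, values with no replicate. With the 3 oncogenes as one class against GFP, 0 members were called by limma. The methods' t-test called 0 members, beside 74 of 7316 genes, and the trended prior 0, beside 0 of 7316. By limma 0% of all genes were called, and 0 members had an unadjusted p under 0.05, beside 1262 of 11821 probe sets tested.

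S100a6 and S100a4 had their lowest group means in freshly sorted GMP. For S100a4 the L-GMP mean was nearly the same (6.50, against 6.45 in GMP), and GMP 2 (5.26) lay well below the rest of its group. S100a6 was 5.76, 4.96, 5.66 and 6.46 in GMP, where 3 of 4 arrays were under the level of 60. It was 9.04, 8.97 and 9.36 in GMP carrying the GFP vector. The groups were far apart, and S100a6 was at least 9.30-fold higher in the cultured cells when GMP is put at the background level (measured difference 3.41, SE 0.31, limma's adjusted p = 0.000157). S100a4 was 7.07, 5.26, 6.61 and 6.84 in GMP and 8.53, 8.49 and 9.03 with the vector. It rose by 2.24 (SE 0.39), 4.72-fold, with limma's adjusted p = 0.00556. Infection, vector, culture and time all differ between these groups and cannot be told apart.

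Of the 7 members, S100a4 and S100a6 were the 2 called higher in GFP against GMP and none was called lower, beside 16.6% of all genes called. S100a8 and S100a9 differed by 0.46 each (limma's adjusted p = 0.0676 and 0.151), S100a8 being called without GMP 2 (adjusted p = 0.0301), and S100a10, S100a1 and S100a13 by 0.21, 0.04 and 0.18, none of them called. Within tag A the S100a6 and S100a4 differences were 3.67 and 2.37, both called by limma (adjusted p = 8.62e-05 and 0.00913). Without GMP 2 they were 3.16 and 1.84, also called (adjusted p = 1.03e-05 and 0.000104). In the same comparison 16 of 17 tested monocyte and macrophage genes were higher and none lower (median 1.85, all genes −0.05), and their summed linear level was 31290 to 34200 in GFP against 7718 to 11200 in GMP. In GFP, Mrc1, Cd163 and Marco were under 60 on every array. The neutrophil list had 14 of 22 higher and 2 lower. Of the genes named for it above, group means from GMP to GFP went from 10.36 to 8.10 for Ltf and from 10.82 to 8.27 for Camp. They went from 12.28 to 11.80 for Ngp and from 10.71 to 11.99 for Lcn2. The part of either list in the S100a4 and S100a6 result was not tested.

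S100a6 was also lower with MOZ-TIF2 than with the vector. S100a6 was 7.57, 8.14, 8.44 and 7.55 with MOZ-TIF2, all below the lowest GFP array at 8.97. It fell by 1.20 (SE 0.22), 2.29-fold, with limma's adjusted p = 0.0126, and by 1.07 within tag A (adjusted p = 0.0271). The call was lost with the tag as a factor over 24 arrays (−1.12, adjusted p = 0.280) and with all 24 arrays in one fit (adjusted p = 0.264). With NUP98-HOXA9 it was 9.69, 9.68 and 9.27, a difference of 0.42 from GFP that was not called (limma's adjusted p = 0.447, 95% interval 0.03 to 0.82). With AML1-ETO it was 10.25, 8.71, 8.86 and 8.74, with AE 1 above the GFP range and the other 3 just below it. The mean difference was 0.02 (95% interval −0.75 to 0.79), and its sign rested on AE 1. Without AE 1 it was −0.35 and not called (limma's adjusted p = 0.0892), and AE 1 alone, the single AML1-ETO array in tag A, lay 1.13 above the GFP mean, a value with no replicate.

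S100a4 followed a different order under the oncogenes. It was 9.45, 9.23 and 9.15 with NUP98-HOXA9, the highest of the 7 groups and clear of GFP, though the difference of 0.59 was not called (limma's adjusted p = 0.327). It was 8.15, 8.42, 8.41 and 7.69 with MOZ-TIF2, a difference of −0.52 from GFP that was not called (adjusted p = 0.117). With AML1-ETO it was 9.05, 7.30, 7.83 and 7.57, where AE 1 was again the high array. S100a4 was higher by 1.34 (SE 0.32) with NUP98-HOXA9 than with AML1-ETO, 2.52-fold, with limma's adjusted p = 0.0198. It was the 1 member of 7 called there, beside 8.10% of genes. Without AE 1 it was 1.71 (limma's adjusted p = 0.000147), and S100a6 was then called too, higher with NUP98-HOXA9 by 0.78 (adjusted p = 0.0322). The AML1-ETO arrays left are all in tag B, which holds no NUP98-HOXA9 array, so tag and oncogene cannot be told apart there. In tag A, where AE 1 is the only AML1-ETO array, the S100a4 difference was 0.29. The call was lost without NHA9 1, NHA9 2, AE 2 or AE 3.

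LSK held more S100a6 than GMP. S100a6 was 6.81, 7.11 and 7.65 in LSK, all above the highest GMP array at 6.46. LSK were at least 2.43-fold higher (measured difference 1.48, SE 0.34, limma's adjusted p = 0.0179), and S100a6 was the 1 member of 7 called, beside 16.4% of genes. The call was lost when LSK 2 or LSK 3 was left out. S100a4 was 6.99, 7.57 and 7.37 in LSK and overlapped GMP (difference 0.86, adjusted p = 0.183). For S100a1, which acts in muscle and nerve calcium handling, the second probe set was lower in LSK by 0.79 (limma's adjusted p = 0.00993), while the representative one differed by −0.59 (adjusted p = 0.0749), so the 2 probe sets lay on opposite sides of the threshold. Without GMP 2 the representative one was called too (−0.62, adjusted p = 0.0440).

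On the leukemic arrays S100a6 was 8.35, 7.73 and 5.26, and S100a4 was 7.16, 7.35 and 4.99. L-GMP 3 was under the level of 60 for both genes, and the other 2 arrays lay above every GMP array, by a small margin for S100a4. Against GMP the mean difference was 1.41 for S100a6 (SE 0.67, limma's adjusted p = 0.321) and 0.05 for S100a4 (adjusted p = 0.98). Without L-GMP 3 the S100a6 difference was 2.33 and was called (adjusted p = 0.0187). The S100a4 difference had no steady sign, at −0.341 without GMP 2, −0.275 without L-GMP 1 and up to 0.807 over all arrays left out, none called.

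The S100a6 difference differed between leukemia and culture. MOZ-TIF2 GMP were below their vector control by 1.20, while MOZ-TIF2 leukemic GMP were above normal GMP by 1.41, a difference that was not itself called (limma's adjusted p = 0.321). A test of the difference between these, over all 24 arrays, gave 2.60 (SE 0.72, limma's adjusted p = 0.0265). S100a6 was the 1 member of 7 called, beside 9.08% of genes. Since the GMP mean is under the level of 60, these measured values depend on a dim signal. With GMP put at that level, the leukemic difference is at least 1.21 and the difference between the contrasts at least 2.40, with no test. The 2 contrasts use different controls, and S100a6 was far lower in fresh GMP than in cultured GMP. The call was lost without MT2 1, MT2 4, GFP 3, L-GMP 1 or L-GMP 2, and the value without L-GMP 1 was 1.98 (limma's adjusted p = 0.0649). Without L-GMP 1, S100a1 (−0.84, adjusted p = 0.0306) and S100a8 (−1.55, adjusted p = 0.0155) were called instead.

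S100a10, the partner of annexin A2, was the 1 member called lower in both MOZ-TIF2 settings. It was 8.81, 8.95 and 9.38 with the GFP vector and 7.61, 8.34, 7.97 and 7.52 with MOZ-TIF2, with no overlap. It fell by 1.19 (SE 0.21), 2.28-fold, with limma's adjusted p = 0.0114. It was 8.97, 8.37, 9.11 and 8.92 in GMP and 6.94, 7.39 and 7.54 in L-GMP, again with no overlap. It fell by 1.55 (SE 0.25), 2.93-fold, with limma's adjusted p = 0.00922. S100a10 was the 1 member of 7 called between L-GMP and GMP, beside 5.23% of genes.

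LSK had the highest group mean, with 9.42, 9.21 and 9.53. L-GMP were lower than LSK by 2.10 (SE 0.22), 4.29-fold, with limma's adjusted p = 0.000929. S100a10 was again the 1 member of 7 called, beside 17.9% of genes. Without L-GMP 1, the array on which calprotectin was high, the difference from GMP was −1.38 (adjusted p = 0.0102) and that from LSK −1.93 (adjusted p = 6.40e-05), both still called by limma. In tag A, with L-GMP 1 as the only leukemic array, the difference from GMP was −1.87.

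The test of the difference between the S100a10 values in leukemia and in culture gave −0.36 (95% interval −1.05 to 0.32, limma's adjusted p = 0.590), which does not show that they are equal. The second probe set of S100a10 gave −1.18 with MOZ-TIF2 (adjusted p = 0.0104) and −1.58 in L-GMP (adjusted p = 0.0514), so the leukemic difference just missed the threshold there. NUP98-HOXA9 (9.40, 8.90 and 8.78) and AML1-ETO (8.97, 8.91, 9.41 and 9.59) overlapped GFP, with differences of −0.02 and 0.17.

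The mRNA of annexin A2, which S100a10 binds, was lower with MOZ-TIF2 in culture and overlapped normal GMP in the leukemia. Anxa2 was named for this pairing after its values were seen. With MOZ-TIF2 in culture it fell by 1.25 (limma's adjusted p = 0.0186), from a mean of 11.78 to 10.53. In L-GMP it was 10.19, 9.69 and 9.50, against 9.86, 9.06, 9.26 and 9.51 in GMP, and the groups overlapped (difference 0.37, adjusted p = 0.528). The test of the difference between the MOZ-TIF2 effects was 1.62 for Anxa2 (adjusted p = 0.00434). Anxa2 rose with culture by 2.36 (adjusted p = 0.000147), where S100a10 differed by 0.21.

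**Figure D3:**
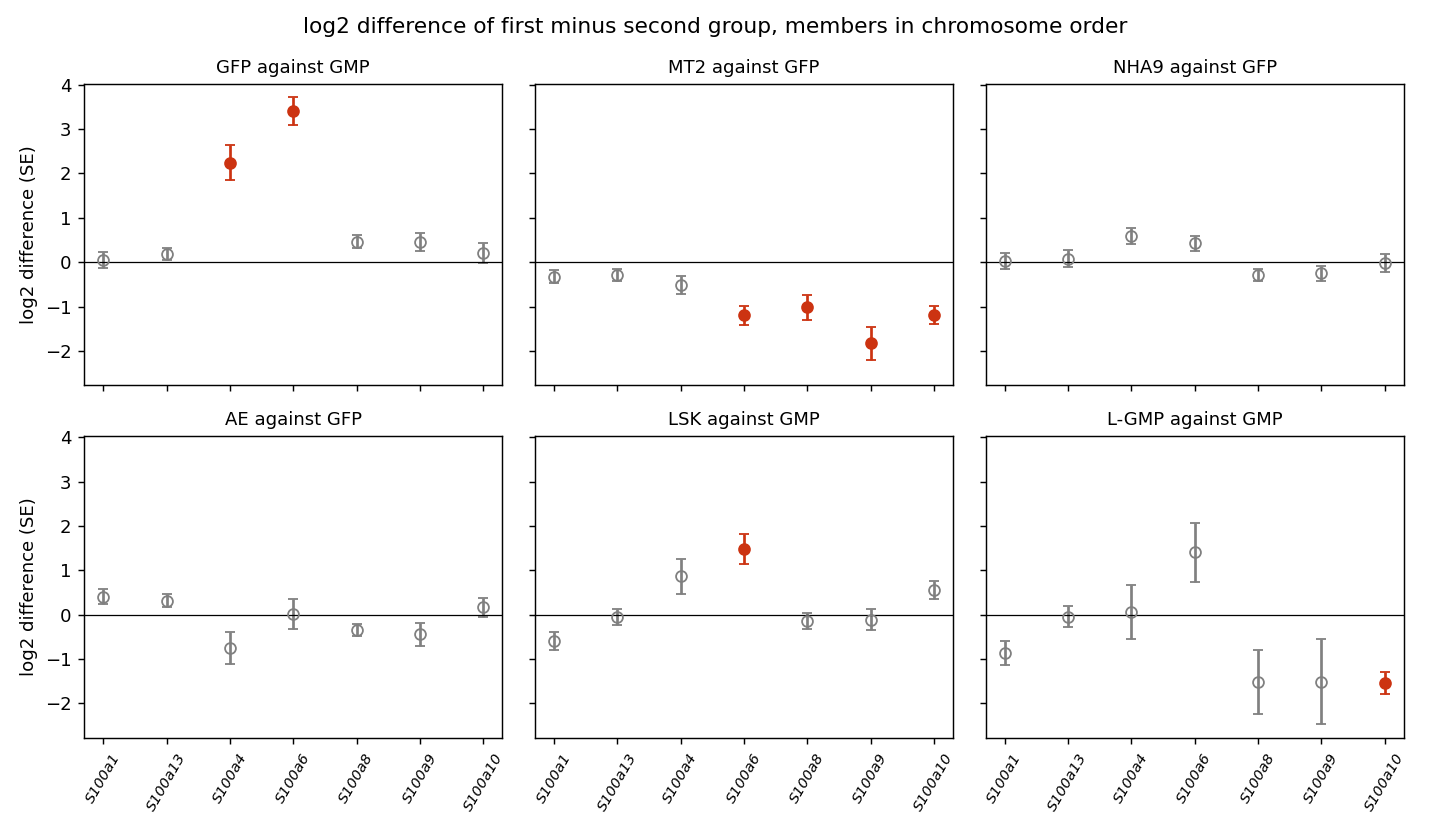
Log2 difference of the first minus the second named group (vertical axes, bars are SE) for the 7 members in chromosome order, in 6 comparisons; filled red points were called. S100a4 and S100a6 rise in GFP against GMP (2.24 and 3.41), 4 members fall in MT2 against GFP, and S100a10 alone is called in L-GMP against GMP (−1.55).

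S100a1, and S100a13, which binds copper and takes part in the release of growth factors that lack a signal peptide, had the narrowest ranges. S100a13 group means spanned 0.61 from 7.70 in MT2 to 8.31 in AE. S100a1 spanned 1.31, from 8.21 in L-GMP to 9.52 in AE. S100a1 was 9.45, 9.71, 9.50 and 9.43 with AML1-ETO, above all 3 GFP arrays (9.13, 8.83 and 9.38), with a difference of 0.41 that was not called (limma's adjusted p = 0.138). On its second probe set the 2 groups overlapped, with AE 4 at 7.148 and GFP 1 at 7.155. Neither gene was called against GFP with any oncogene. In L-GMP, S100a1 was 8.82, 7.92 and 7.90, below every GMP array, with a difference of −0.86 that was not called (adjusted p = 0.119). It was called without L-GMP 1 (−1.16, adjusted p = 0.00924).

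Set against the other oncogenes directly, most S100 members were lower with MOZ-TIF2. These fits took all 14 transduced arrays. Against AML1-ETO, 6 of 7 members were lower with MOZ-TIF2 and none higher, in a comparison where 30.1% of all genes were called and 17.9% were called lower. S100a10 was lower by 1.36 (SE 0.22, limma's adjusted p = 0.000413), S100a9 by 1.39 (adjusted p = 0.00693) and S100a6 by 1.21 (adjusted p = 0.00789). S100a1 was lower by 0.74 (adjusted p = 0.00140), S100a13 by 0.61 (adjusted p = 0.00701) and S100a8 by 0.68 (adjusted p = 0.0377). S100a4 differed by 0.23 (limma's adjusted p = 0.609), and the difference kept its sign whichever single array was left out (0.018 to 0.60). Without AE 1 it was called higher with MOZ-TIF2 (0.60, adjusted p = 0.0329), and in tag A, against AE 1 alone, it was −0.72. The S100a9 ranges overlapped, with MT2 4 at 12.07 and AE 3 at 12.04, and the S100a8 call was lost without MT2 1, MT2 2 or any 1 of the 4 AE arrays.

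Tag B holds 1 MOZ-TIF2 and 3 AML1-ETO arrays. There S100a10 was 7.52 against 8.91 to 9.59 and S100a6 was 7.55 against 8.71 to 8.86, both well apart. S100a9 was 12.07 against 12.04 to 12.63, within the AML1-ETO range. In tag A the single AML1-ETO array is AE 1, and the MOZ-TIF2 mean lay below it by 2.37 for S100a9 and 2.2 for S100a6, values with no replicate on the AML1-ETO side. Without AE 1 the S100a9 and S100a6 differences were −1.16 and −0.84, both called by limma (adjusted p = 0.0178 and 0.00663).

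Against NUP98-HOXA9, 4 of 7 members were lower with MOZ-TIF2 and none higher, beside 8.03% of genes called. S100a6 was lower by 1.62 (SE 0.32, limma's adjusted p = 0.00911), S100a9 by 1.58 (adjusted p = 0.0177), S100a10 by 1.17 (adjusted p = 0.00869) and S100a4 by 1.11 (adjusted p = 0.0478). Without NHA9 1 none of the 4 was called, and the S100a4 call was lost when any 1 of the 7 arrays was left out. These 2 oncogene comparisons share the MOZ-TIF2 arrays.

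Genes that bind or receive S100 proteins moved in part. Of a list of 23 receptors and partners, 22 were on the array. With MOZ-TIF2 against GFP, 2 of 15 tested were higher and 4 lower, beside 12.0% of all genes called (8.80% higher and 3.22% lower). Ahnak, a large scaffold that binds S100a10 with annexin A2, fell by 1.30 (limma's adjusted p = 0.00780), and Anxa1, a partner of S100a11, fell by 1.00 (adjusted p = 0.0127). Cacybp rose by 0.78 (adjusted p = 0.00946) and the co-chaperone gene Fkbp4 by 0.66 (adjusted p = 0.0185). In GFP against GMP, 5 of 15 were higher and none lower, beside 16.6% of all genes called, led by Anxa2 and Ahnak (2.99, adjusted p = 0.000304).

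With AML1-ETO against GFP, 4 of 16 were higher and 2 lower, beside 12.1% of all genes called, with Cd14, a co-receptor of Tlr4, higher by 2.72 and Ahnak lower by 1.06 (limma's adjusted p = 0.00655). With NUP98-HOXA9 0 of 16 were called by limma, beside 0.188% of all genes. In L-GMP against GMP, 2 of 16 were higher and 2 lower, beside 5.23% of all genes called. Ahnak rose by 2.13 (adjusted p = 0.0205) and Anxa1 fell by 2.53 (adjusted p = 0.0160). Of the calprotectin receptors, Ager was under 60 on all 24 arrays, and Tlr4 had its highest mean in AE (8.31) and its lowest in LSK (5.74, 1 of 3 arrays over 60).

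The order of group means sets the members apart from each other. S100a4 and S100a6 were both lowest in GMP and highest in NHA9, spanning 2.83 and 3.84. S100a8, S100a9 and S100a10 were all lowest in L-GMP and next lowest in MT2, spanning 1.98, 1.96 and 2.10. This shared order holds for means only. L-GMP 1 was the highest leukemic array for S100a8 (13.86) and S100a9 (13.97) and the lowest for S100a10 (6.94, against 7.39 and 7.54). The S100a9 means in L-GMP and MT2 were close (11.04 and 11.18), as were the S100a4 means in GMP and L-GMP (6.45 and 6.50). Most neighbours in these orders overlapped. For S100a6 only MT2 and GFP were apart, for S100a4 MT2 and GFP as well as GFP and NHA9, for S100a8 NHA9 and GFP, for S100a10 MT2 and GMP, and for S100a9 and S100a13 no pair. For S100a1 the separate neighbours were MT2 and GMP, and NHA9 and AE, but on its second probe set only LSK and MT2 were apart.

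Of 7516 genes searched, the profile of S100a6 over the 7 centred group means was most like that of Gsn (gelsolin, a calcium-dependent actin-severing protein), with a mean absolute difference of 0.20, then Grina (0.24) and the glucose transporter gene Slc2a1 (0.25). S100a4 was nearest to the stress-response factor gene Atf3 (0.279), Apoe (0.281) and Ndrg1 (0.285). S100a10 was nearest to Spint2 (0.19), Chil3 (0.21), a neutrophil and macrophage secreted protein, and Tcf19 (0.22). Among members, S100a4 and S100a6 differed by 0.49, and 37 genes were nearer to S100a6 than S100a4 was. S100a8 was nearer to S100a10 (0.25), with 4 genes closer. The leukemic arrays spanned 7.02 to 13.55 for Chil3 and 10.05 to 13.86 for S100a8, against 6.94 to 7.54 for S100a10. Likeness of S100a10 to these 2 genes is thus one of group means, which hide a wide spread in L-GMP. These are descriptions over 7 group means that share arrays and scaling.

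**Figure D4:**
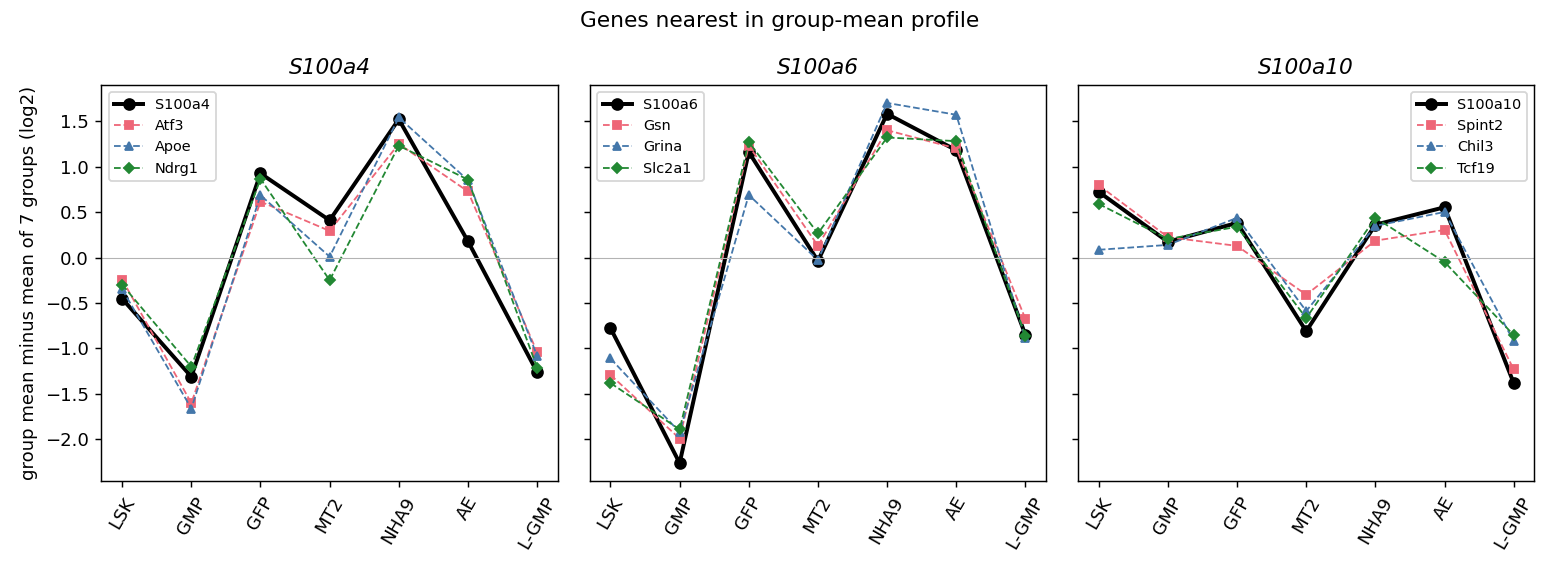
Group mean minus the mean of the 7 groups (log2, vertical axis) for S100a4, S100a6 and S100a10, each in black with its 3 nearest genes dashed. S100a6 runs from −2.26 in GMP to 1.58 in NHA9, and S100a10 is lowest in L-GMP.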

How the data were processed

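The authors deposited log2 expression estimates for 22690 probe sets on 24 arrays, made with GCRMA 2.4.1 from MAS5 cell files, per the submitters' processing notes. The series design text says that outlier arrays were removed, without naming them. The present calls it used were not used here. The log2 values were analysed as deposited, leaving out 64 control probe sets. Of the rest, 20380 carry 1 symbol, 691 several and 1555 none. Each gene is represented by its probe set with the highest mean.

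Comparisons used limma 3.58.1 in R 4.3.3 (lmFit, eBayes), with Benjamini-Hochberg adjustment over probe sets above 60 on at least 2 arrays of a compared group. The script was tested on simulated data. Two-group fits took the 2 groups; the oncogene contrasts took 14 arrays and the leukemia against culture contrast 24. A fold against a group mean under 60 is a lower bound. Alternatives were the methods' t-test, quantile normalization, other filters, a trended robust prior, the mean of probe sets, file-name tags, all arrays in one fit, a replicate block and leaving out each array. Named genes are the members, the other S100 genes, up to 4 genes per list by smallest adjusted p, and the 3 nearest profiles of members whose means span at least 2. Members and the 13 other lists were chosen with earlier results of these data known. Precision is limited by the number of arrays.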

Additional observations from a re-analysis of the deposited data

Results flagged for a closer look

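In 21 groups of 4 arrays tested for a far array, 2 were found, where chance gives about 1 in 20 groups. S100a6 on AE 1 was 10.25, with the next array at 8.86. S100a1 on GMP 4 was 9.37, with the next at 8.98.

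Effects of 2 oncogenes against the shared vector control differed in 11 tests with limma's adjusted p under 0.05. MOZ-TIF2 minus NUP98-HOXA9 was −1.11 for S100a4, −1.62 for S100a6, −1.58 for S100a9 and −1.17 for S100a10. MOZ-TIF2 minus AML1-ETO was −0.74 for S100a1, −1.21 for S100a6, −0.68 for S100a8, −1.39 for S100a9, −1.36 for S100a10 and −0.61 for S100a13. NUP98-HOXA9 minus AML1-ETO was 1.34 for S100a4. The MOZ-TIF2 effect on S100a6 differed between leukemia and culture by 2.60.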

How the results depend on the processing

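The counts of called members moved under several alternatives. The methods' t-test gave 0 of the 4 for MT2 against GFP, beside 0 of 6957 genes called. For MT2 against NHA9 it gave 0 of 4, beside 3 of 6986 genes, and for NHA9 against AE 0, beside 0 of 7103. With so few genes called, these counts say nothing about the members in particular. It gave 3 for MT2 against AE (664 of 7097 genes) and 1 for GFP against GMP (412 of 7103). It gave 0 for LSK against GMP (181 of 7138 genes), L-GMP against GMP (8 of 7096) and L-GMP against LSK (107 of 7120). All 24 arrays in one fit gave 1 for MT2 against GFP (136 of 6957 genes called), 1 for MT2 against NHA9 (248 of 6986) and 3 for MT2 against AE (1628 of 7097), 0 for NHA9 against AE (360 of 7103), 2 for LSK against GMP (1536 of 7138) and 3 for L-GMP against GMP (1326 of 7096). The tag as a factor gave 1, 1, 3 and 0 for the first 4 of these (210, 660, 2195 and 218 genes called) and 2 for L-GMP against GMP (1283 genes). The trended robust prior gave 2 for MT2 against GFP (885 of 6957 genes), 1 for AE against GFP (910 of 7121) and 4 for GFP against GMP (1296 of 7103). LSK against GMP rose to 3 with quantile normalization (1868 of 7138 genes) and 2 with the mean of probe sets (1055 of 6309). Within tag A, AE against GFP, NHA9 against AE, L-GMP against LSK and leukemia against culture each have an arm of 1 array (AE 1 or L-GMP 1). That arm is assumed to vary like the others, with no replicate basis, so counts of called members are not given for these.

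Within tag A, 22 of the single-gene differences took the other sign, 5 of them with a call. S100a4 in MT2 against AE was −0.72. L-GMP against LSK, with L-GMP 1 as the only leukemic array, gave 1.39 for S100a6, 0.88 for S100a8 and 1.64 for S100a9. S100a8 in leukemia against culture gave 1.81. Uncalled ones included S100a8 (0.60) and S100a9 (1.38) in L-GMP against GMP and S100a4 (0.36) in AE against GFP. Under the other settings, leave-one-out apart, 721 single-gene values kept their sign and 21 did not, all 21 uncalled. Outside leave-one-out 48 values lost the call and 17 gained it. The causes were not tested.

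Leaving out 1 array gave 2 to 4 called members for MT2 against GFP, beside 113 to 1015 genes called, and 0 to 2 for AE against GFP (231 to 2016 genes). It gave 0 to 4 for MT2 against NHA9 (179 to 671 genes), with 0 without NHA9 1, where 179 genes were called. Counts were 5 to 6 for MT2 against AE (1622 to 2153 genes), 0 to 2 for NHA9 against AE (298 to 918) and 0 to 2 for LSK against GMP (529 to 1862). They were 1 to 4 for L-GMP against GMP (145 to 752 genes) and 1 to 3 for L-GMP against LSK (493 to 2703). They were 2 to 3 for GFP against GMP (543 to 2616 genes) and 0 to 2 for leukemia against culture (446 to 923).

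The replicate numbers did not pair samples. Over 21 same-numbered pairs in 7 comparisons, deviations correlated at −0.29 to 0.27, 6 pairs were over 0.1 and 8 arrays correlated best with their own number. With the replicate block 4 members were called for MT2 against GFP (615 of 6957 genes) and 3 for MT2 against NHA9 (392 of 6986), where S100a4 was lost.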

Other observations

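The other S100 genes on the array were mostly dim. S100a3, S100a5, S100a14, S100b and S100g were under the level of 60 on all 24 arrays. S100a16 had group means of 6.16 to 6.70 and was not called in any of the 12 comparisons. S100pbp, which encodes an S100P-binding nuclear protein and is no S100 gene itself, had its highest mean in LSK (6.72). It was at least 1.76-fold higher there than in GMP (limma's adjusted p = 0.0239), and at least 1.76-fold lower in L-GMP than in LSK (adjusted p = 0.00626), with GMP and L-GMP put at the level of 60. It was over 60 on 3 of 4 AE arrays and on none of the GFP arrays, at least 1.08-fold higher (limma's adjusted p = 0.0391). Those 3 are the tag B arrays of AE. AE 1, in tag A, was 5.56, against 5.28 to 5.34 on the GFP arrays, all in tag A. S100pbp was also highest within GMP and within MT2 on their tag B arrays, GMP 4 and MT2 4. The part of the tag in the AML1-ETO difference was not tested.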
